A study of Mus musculus with 192 samples.

Results

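The 8 genes described here are the antiviral and interferon-inducible genes Bst2, Lgals9, Lgals3bp, Ifi27, Ifi27l2a, Ly6e, Xaf1 and Ifi35, out of 11688 genes to which start-site tags were assigned. A tag is a read whose first base marks where an RNA begins. A gene's tags were those of peaks on its strand in windows annotated to it by RefSeq and lying at most 1000 bp from an annotated start, which gave 190 of the 553094 windows to the 8 genes. The genes were picked on measured values, namely the large rise of Bst2 and Lgals9 from naïve to pretreated cells and the listing of Ifi27l2a in pretreated cells alone, so the differences between the groups below are descriptions of the chosen genes and carry no test.

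Single mouse embryonic fibroblasts of strain C57BL/6, primary connective-tissue cells grown from embryos, were studied by single-cell start-site sequencing of polyadenylated RNA. All received interferon-beta at 100 U/ml and were taken at 1 h. They were 96 cells labelled naïve and 96 cells labelled pretreated (spelled Preteated in the sample titles), with an earlier treatment whose agent and length the labels do not give. No cell without interferon was among them, and no culture or animal is named, so each group counts as 1 sample. Cells below 230562.75 total tags were left out, and 92 naïve and 85 pretreated cells were kept.

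Type I interferon binds its receptor at the cell surface and switches on many antiviral genes through the interferon-stimulated response element, a DNA site built around repeated GAAA letters. Bst2 (tetherin) holds budding virus particles at the cell surface, and Ly6e is a lipid-anchored surface protein that limits the entry of some viruses. Lgals9 encodes galectin-9, a secreted lectin that binds beta-galactosides, and Lgals3bp a secreted glycoprotein that binds galectin-3. Ifi27 and Ifi27l2a belong to a family of small hydrophobic membrane proteins, Xaf1 counters the apoptosis inhibitor XIAP, and Ifi35 forms a complex with Nmi.

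Promoter sequence from RefSeq (GRCm38.p6, 250 bases before to 50 after the start) was present for 5 of the 8 genes: Bst2, Lgals9, Lgals3bp, Xaf1 and Ifi35. They are shown because all 5 held a pair of GAAA repeats, read on either strand, with 1, 2 or 3 bases between the repeats. The motif letters were chosen after these promoters had been seen. Stretches upstream of the start are printed for Bst2, Lgals9 and Lgals3bp, and 30 bases around the motif, which lies past the annotated start, for Xaf1 and Ifi35, each 5′ to 3′ on the gene's strand with the matched letters in capitals.
Bst2: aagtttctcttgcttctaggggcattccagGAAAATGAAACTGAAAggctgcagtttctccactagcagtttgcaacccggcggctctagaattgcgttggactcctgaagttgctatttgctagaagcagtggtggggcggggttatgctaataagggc
Lgals9: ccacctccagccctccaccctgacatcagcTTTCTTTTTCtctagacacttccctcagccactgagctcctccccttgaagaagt
Lgals3bp: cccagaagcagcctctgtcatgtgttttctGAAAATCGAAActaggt
Xaf1: gtgtgcaaaGAAACGAAActccacagaagc
Ifi35: gaattcacaGAAATGAAAgtggaagtgagg

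The Bst2 stretch lies at chr8:71537473-71537632 on the minus strand. It holds GAAANNGAAA, the core of the response element, in 2 overlapping copies that begin at -130 and -124, counted in bases from the annotated start. The Lgals9 stretch lies at chr11:78984925-78985009, minus strand, and has GAAANNGAAA on the opposite strand, beginning at -55. A second Lgals9 match lies 16 to 25 bases past the start and is not printed. The Lgals3bp stretch lies at chr11:118401960-118402006, minus strand, and has the spacing of 3, GAAANNNGAAA, ending at -7. Xaf1 (chr11:72301630-72301659, plus strand) and Ifi35 (chr11:101448416-101448445, plus strand) have the spacing of 1, GAAANGAAA. Of all 32851 RefSeq promoters of the same length, 3.44% held GAAANNGAAA, 3.17% GAAANGAAA, 2.75% GAAANNNGAAA and 8.61% any of these 3. These matches describe letters and say nothing about binding in these cells. The sequences are on a later genome build than the start sites below (mm9), and no position was carried from one to the other.

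Total tags of the kept cells ranged from 305066 to 3857034 in the naïve group (median 2305628) and from 502374 to 13174313 in the pretreated group (median 2650490). Levels are given as CPM, tags per 1000000 total tags. Pretreated cells had more peaks, with a median of 6605 against 5231.5, and 84.6% of their tags lay in peaks against 90.1%. Only peaks of at least 20 CPM are listed, so a gene with no listed peak in a cell may still be expressed there. The fibroblast markers had tags for 10 of 11 genes, with a summed level per cell of 273 to 4002 CPM in naïve and 121 to 4452 in pretreated cells. Only 4 of the 11 reached 50 CPM in a group. They were Vim (595 CPM in naïve and 1088 in pretreated cells), Col1a1 (329 and 377), Fn1 (287 and 147) and Col3a1 (137 and 95.5). Of the other fibroblast markers, Col1a2 was at 43.43 and 43.97, Pdgfrb at 21.46 and 24.53 and Col6a1 at 16.18 and 16.75. These and Pdgfra, at 9.76 and 2.53, lay above the highest leukocyte marker, Cd68, at 7.74 and 1.68. Dcn at 3.13 and 0.51 and Thy1 at 0.67 and 0 lay below Cd68 in both groups. Lum was listed at 0 in both groups. Of the 10 leukocyte markers 3 had tags (Cd74, Lyz2 and Cd68, each below 8 CPM in both groups) and Ptprc, the pan-leukocyte gene, was listed at 0. Of the 5 epithelial markers none had tags, and of the 5 endothelial markers Kdr had tags, in 1 cell. Pretreated cell 93 stood apart: its summed level of the 8 genes was 308 CPM against 3349 in the next lowest pretreated cell, its level of 71 interferon-inducible genes was 1222 against 12308, its fibroblast markers were at 121 against a group median of 1831, and it had 9216 peaks. Lowest levels and overlaps that this cell sets are also given without it.

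The 8 genes together took 0.0787% of all tags in naïve and 0.674% in pretreated cells, an 8.56-fold difference (log2 3.10, 95% interval 3.09 to 3.11). Intervals here are exact and cover counting error only, and tags without molecular identifiers are not independent molecules. Of the 8 genes, 7 were at least 2-fold higher in pretreated cells, counting Ifi27l2a with no naïve tag, and none was at least 2-fold lower. By the same rule, of the 2244 genes with at least 50 CPM in a group, 25.5% were at least 2-fold higher and 11.2% at least 2-fold lower. The same 7 genes were at least 4-fold higher, as were 7.35% of all genes tested. Since the genes were picked on this contrast, nothing is read from these counts. The median log2 ratio of the 7 genes with tags in both groups was 3.33, or 3.41 with Ifi27l2a ranked highest, where the median over all genes tested was 0.38. Relative to that general shift, Ifi27 was the gene of the group that lay lower.

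**Figure D1:**
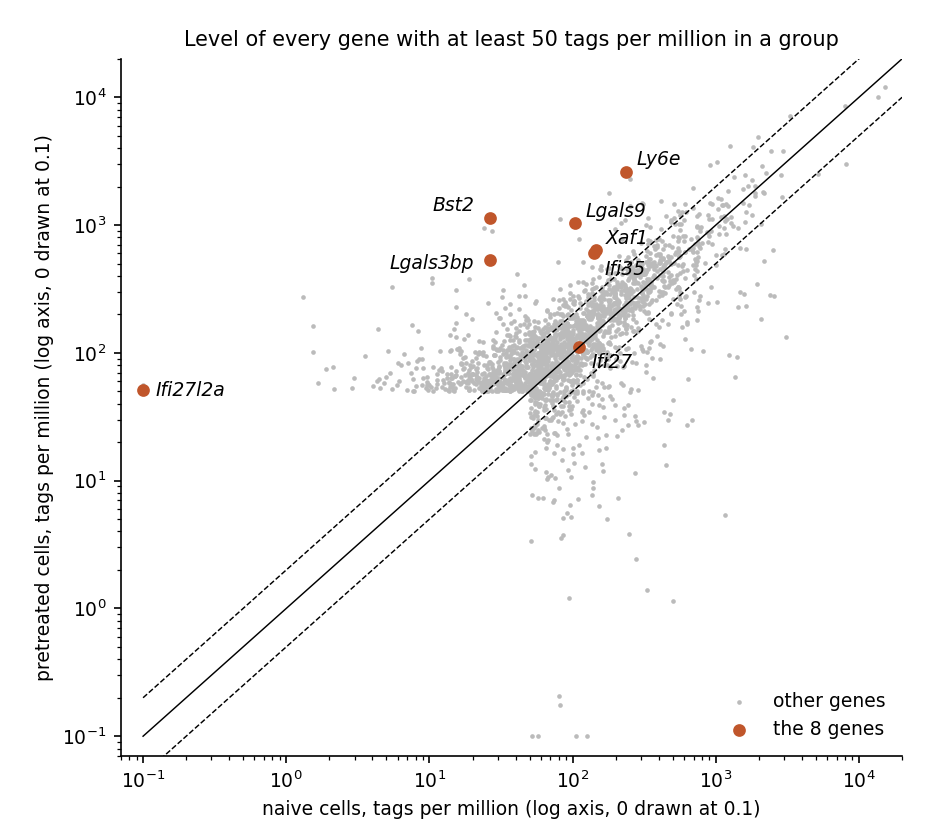
Level of every gene with at least 50 CPM in a group, naïve cells on the horizontal and pretreated cells on the vertical axis, both on log scales with 0 drawn at 0.1. The solid line marks equal levels and the dashed lines 2-fold differences: Ifi27 lies on the solid line, Ifi27l2a at 0 naïve tags, and the other 6 genes above the upper dashed line.

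Of the genes that act at the cell surface, Bst2 had the largest ratio of the 8. Its level in single naïve cells ran from not listed through a median of not listed to 326 CPM, and in pretreated cells from 170 through 1051 to 2372. A Bst2 peak was listed in 29 of 92 naïve cells (31.5%, exact interval 22.2 to 42.04%) and in all 85 pretreated cells. The groups overlapped through 1 pretreated cell, number 93. The other 84 pretreated cells, at 472 or more, all lay above the highest naïve cell. Over all cells Bst2 went from 26.7 to 1141 CPM, which is 42.8-fold (log2 5.42, interval 5.38 to 5.46). The naïve level rests on few tags, 5425 in all, of which 1 cell gave 18.97%.

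Ly6e was the most abundant of the 8 in both groups. Its level per cell was not listed at the lowest, 180 at the median and 1032 at the highest in naïve cells, and 34.5, 2713 and 5838 CPM in pretreated cells. Ly6e was listed in 81 naïve cells (88.04%) and in all 85 pretreated cells, so most naïve cells had it at 1 h of interferon. The groups overlapped little: 80 pretreated cells lay above the highest naïve cell, and without pretreated cell 93 the lowest pretreated cell was at 784, with 2 naïve cells above it. Summed over cells, Ly6e went from 235 to 2622 CPM, 11.2-fold (log2 3.48, 3.47 to 3.49).

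Lgals9 and Lgals3bp, which encode secreted proteins, differed in how many naïve cells listed them. Lgals9 in naïve cells ran from not listed through a median of 39.5 to 576 CPM, with 59 of 92 cells listing it (64.1%, 53.5 to 73.9%). In pretreated cells it ran from not listed, in cell 93 alone, through a median of 1116 to 1964, and 84 of 85 cells listed it. Without cell 93 the lowest was 311, 8 naïve cells lay above it, and 78 pretreated cells lay above every naïve cell. Lgals9 went from 104 to 1042 CPM over all cells, 10.1-fold (log2 3.33, 3.31 to 3.35).

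Lgals3bp was listed in 18 naïve cells (19.6%, 12.03 to 29.1%), the fewest among the 7 genes seen in both groups. Its naïve levels had their median at not listed and their highest at 388 CPM, and its pretreated levels ran from not listed through a median of 484 to 1416. Again 84 of 85 pretreated cells listed it and cell 93 did not. The lowest of the other 84 was at 115, with 6 naïve cells above it, so the groups overlapped where those of Bst2 did not, and 57 pretreated cells lay above the highest naïve cell. The summed level went from 26.3 to 530 CPM, 20.1-fold (log2 4.33, 4.29 to 4.37). In the naïve group 1 cell gave 21.5% of its 5351 tags.

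The members of the Ifi27 family, both on chromosome 12, had unlike patterns. Ifi27 ran from not listed through a median of 62.8 to 588 CPM in naïve cells, and from not listed through 90.2 to 542 in pretreated cells. The groups overlapped over their whole range, with no pretreated cell above the highest naïve cell. More pretreated cells listed Ifi27, 76 of 85 (89.4%) against 67 of 92 (72.8%), while the median level in listing cells was lower, 105 against 126. Over all cells Ifi27 was at 110 in naïve and 111 CPM in pretreated cells (log2 0.01, -0.01 to 0.03), and its sign changed with the scaling, from -0.23 with size factors set by the median gene to 0.10 with tags in peaks as the denominator.

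Ifi27l2a had no listed peak in any of the 92 naïve cells, nor any sense peak of the gene farther than 1000 bp from the start. The gene was picked for this absence. The exact upper limit, 3.93% of cells, takes cells as independent draws and makes no allowance for the picking. In pretreated cells 44 of 85 listed it (51.8%, 40.7 to 62.7%), and its level ran from not listed through a median of 22.4 to 313 CPM. With a median of 73.3 in listing cells it stood near the listing limit of 20, and its 14685 tags came to 51.2 CPM over the group. No ratio is given because the naïve group is listed at 0. Of the 44 cells with Ifi27l2a, 39 also listed Ifi27 (88.6%), where 76 of all 85 pretreated cells did.

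Xaf1 and Ifi35, the apoptosis factor and the Nmi partner, had the smallest ratios of the 6 genes that were at least 2-fold higher from a naïve level above 0. Xaf1 levels were not listed, 80.8 and 887 CPM (lowest, median, highest) in naïve and 51.4, 618 and 1293 in pretreated cells. Ifi35 levels were not listed, 58.2 and 1201 in naïve and not listed, 598 and 1539 in pretreated cells. Here the groups overlapped broadly: 20 pretreated cells for Xaf1 and 4 for Ifi35 lay above the highest naïve cell, although only 4 naïve cells lay above the pretreated median in either case. Without pretreated cell 93 the lowest pretreated level of Xaf1 was 203, and the naïve cells above the lowest fell from 52 to 28. Without it all 84 pretreated cells listed Ifi35, with the lowest at 26.4 and 54 naïve cells above it. Xaf1 was listed in 59 naïve (64.1%) and 85 pretreated cells, and Ifi35 in 57 (61.96%) and 84. Xaf1 went from 145 to 637 CPM, 4.38-fold (log2 2.13, 2.11 to 2.15). Ifi35 went from 140 to 609, 4.34-fold (log2 2.12, 2.10 to 2.14), and 89 bases near its 5′ end are identical in the transcript Gm11626, so its tags are uncertain to that extent.

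**Figure D2:**
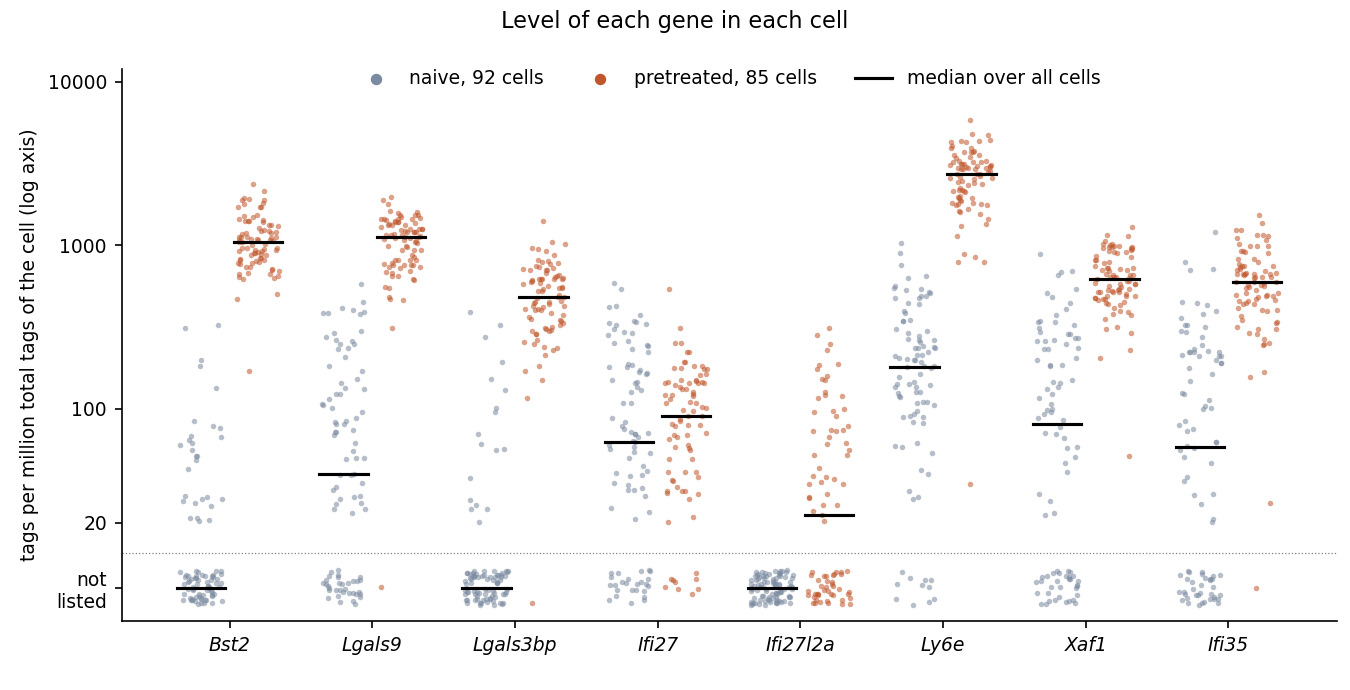
Level of each gene in each of 92 naïve and 85 pretreated cells, in CPM total tags of the cell on a log axis, with cells that list no peak drawn in a row at the bottom and black bars at the median over all cells. Bst2, Lgals9 and Ly6e show the least overlap between the groups, Xaf1 and Ifi35 a broad one, and Ifi27 an almost complete one.

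By summed level in pretreated cells the order was Ly6e, Bst2, Lgals9, Xaf1, Ifi35, Lgals3bp, Ifi27 and Ifi27l2a. These levels count RNA 5′ ends, so they are not divided by transcript length. The lower and upper quartiles over cells were 810.6 and 1331 CPM for Bst2 and 762 and 1354 for Lgals9. They were 486 and 847 for Xaf1, 438 and 745 for Ifi35 and 332 and 644 for Lgals3bp. The quartile ranges of neighbours in the order from Bst2 to Lgals9 and from Xaf1 to Lgals3bp therefore overlapped. All these genes were measured in the same cells, and no difference within cells was computed. The lower quartile of Ly6e, 1945, lay above the upper quartile of Bst2.

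The 6 genes at least 2-fold higher with tags in both groups differed in how the share of listing cells and the level in those cells contributed. For Ly6e the share of cells was 1.14-fold higher and the median level in listing cells 13.5-fold higher, from 201 to 2713 CPM. For Lgals3bp the share of cells was 5.05-fold and the level 7.51-fold higher, and for Bst2 these were 3.17-fold and 20.6-fold. Over all genes tested the median share of listing cells was 59.8% in naïve and 82.4% in pretreated cells. Listing depends on the limit of 20 CPM, so the share and the level are not independent measures.

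**Figure D3:**
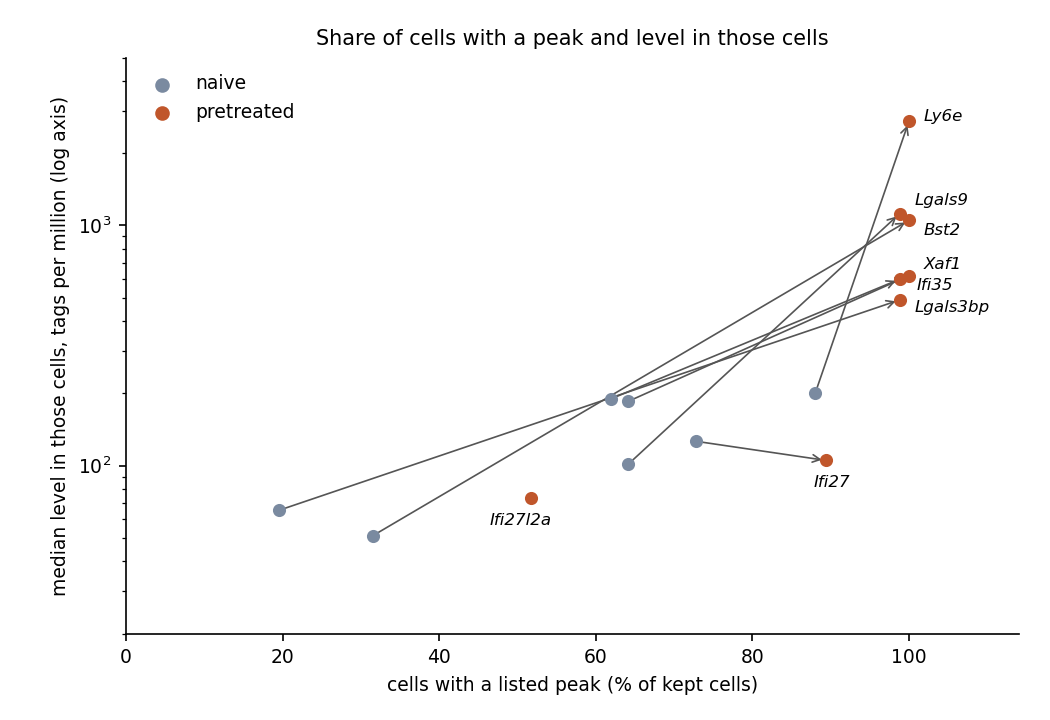
Share of kept cells with a listed peak (horizontal) and median level in those cells in CPM (vertical, log axis), with an arrow from naïve to pretreated for each gene and no naïve point for Ifi27l2a. The arrow of Ly6e is nearly vertical, those of Bst2 and Lgals3bp also run far to the right, and that of Ifi27 points slightly down.

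Per cell, naïve cells listed a median of 4 of the 8 genes (0 to 7) and pretreated cells a median of 7 (4 to 8, the 4 being cell 93 and the next lowest 6). At least 7 of the 8 were listed in 4 naïve and 80 pretreated cells, and all 8 in 39 pretreated cells. No naïve cell could list all 8, since Ifi27l2a was picked as listed in pretreated cells alone. Over all genes tested the median share of listing cells also rose, from 59.8% to 82.4%. The summed level of the 8 genes had a median of 721 CPM in naïve cells, with 0 to 2308 as the range, and of 6740 in pretreated cells, with 308 to 11884. It was above the highest naïve cell in 84 of 85 pretreated cells, all but cell 93. The values of Bst2, Lgals9 and Ifi27l2a on which the genes were picked enter these counts and sums, so nothing is read from them.

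**Figure D4:**
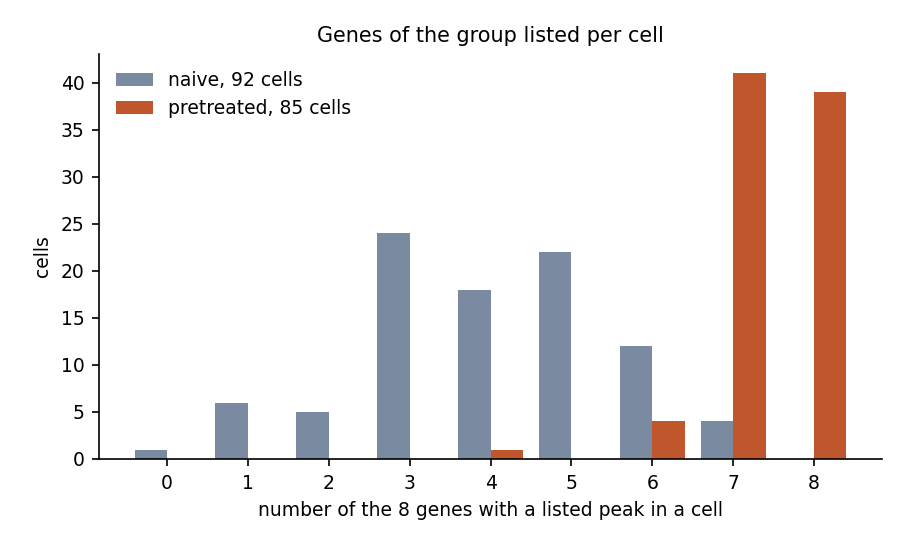
Number of the 8 genes with a listed peak in a cell (horizontal) and number of cells (vertical), for 92 naïve and 85 pretreated cells. Pretreated cells pile up at 7 and 8 genes, and naïve cells spread from 0 to 7. No naïve cell could reach 8, since Ifi27l2a was picked as listed in pretreated cells alone.

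Within a group the rank correlations between pairs of the genes were mostly low. Cells that do not list a gene are tied at 0, and no rho of other gene pairs was computed, so low values are not read as independence. The median Spearman rho over pairs was 0.11 in naïve cells (21 pairs, 92 cells) and 0.15 in pretreated cells (28 pairs, 85 cells), and all points share library and depth within a cell. Xaf1 and Ifi35 had the highest value in pretreated cells, 0.50, followed by Lgals3bp and Ly6e at 0.45. Ifi27 and Ly6e had the lowest, -0.22. In naïve cells Bst2 and Ly6e led with 0.37, and 28 of the 29 cells with Bst2 also listed Ly6e. The summed level of the 8 genes had a rho of 0.67 in naïve and 0.56 in pretreated cells with the summed level of the 71 interferon-inducible genes, and of 0.04 and 0.05 with total tags. With the number of peaks in a cell it had a rho of -0.32 in naïve and -0.41 in pretreated cells, and without Ly6e, the most abundant of the genes, -0.34 and -0.21.

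The genes whose level over naïve cells was most like that of the 8 summed were Ifit1 (rho 0.59), Ifitm2 (0.50), Ifitm3 (0.50), Usp18 (0.47) and Rtp4 (0.47), among 1384 genes listed in at least 50% of the cells. All 5 are on the interferon list. In pretreated cells they were Apod (0.52), Phf11b (0.51), Vps72 (0.50), Hmox2 (0.47) and Cox19 (0.47) among 2315 genes, none of them on the list. The list is a chosen set of 71 genes, so a gene off it may still be interferon-inducible, and Phf11d is on it where Phf11b is not. In these cells the summed 8 genes still had a rho of 0.56 with the whole list. For Bst2 alone the 5 were Copg1, Mnat1, Fis1, Tmbim6 and Xrn2 in naïve cells (rho 0.42 to 0.29) and Cst3, B2m, Cope, Ogn and Bgn in pretreated cells (0.51 to 0.40). For Lgals9 they were Crabp2, Vcam1, Ifitm2, Nedd4 and Ptn in naïve cells (0.40 to 0.36) and Tbrg1, Efemp1, Plin2, Isg20 and Psme1 in pretreated cells (0.51 to 0.37). Over all genes ranked, the 95th percentile of rho in naïve and pretreated cells was 0.21 and 0.26 for the sum, 0.18 and 0.23 for Bst2, and 0.20 and 0.23 for Lgals9. The named genes are the highest of many and were not tested. Bst2 was listed in only 29 of the 92 naïve cells.

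The deposited windows of mm9 place the starts, and their distances below run from the annotated start to the window's centre, downstream being positive. Peaks of a cell lie at least 300 bp apart, so 2 starts closer than that are never both listed in a cell, and the bands of distance named here were chosen after the values were seen. All tags of a 150 bp peak are counted at its window, so the shares say where peaks are centred. Single starts may lie elsewhere within a peak. Bst2 peaks were centred farther downstream in pretreated cells. The band from 0 to 30 bp held 72.8% of naïve tags (17 cells) and 20.6% of pretreated tags (14 cells). The band from 31 to 60 bp held 17.1% (7 cells) and 79.2% (70 cells). By tags the naïve leader, chr8:74061293-74061442 at 4 bp, held 33.1% of naïve tags in 5 cells, and no pretreated cell had its peak there. The pretreated leader by tags, chr8:74061248-74061397 at 49 bp, held 114520 of 327236 tags in 25 cells, and chr8:74061254-74061403 at 43 bp another 111072 in 34 cells. With each cell weighted equally the leaders were at 21 bp in naïve cells (20.7%) and 43 bp in pretreated cells (40%), so the leading window depends on the weighting. All are annotated as promoter and start. The median distance of a cell's leading Bst2 start went from 24 bp (29 cells) to 43 bp (85 cells).

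Lgals3bp peaks also differed in position. The pretreated leader at 13 bp (chr11:118263186-118263335, minus strand, promoter and start) held 56.4% of tags in 40 cells and 0.916% of naïve tags in 1 cell. The naïve leader at 27 bp (chr11:118263172-118263321) held 35.9% in 2 cells, and with 18 listing cells the naïve shares rest on single cells. The median distance of the leading start over cells went from 52.5 to 16 bp. Of the 7 genes compared, Bst2 and Lgals3bp differed by at least 10 bp in this median, where 23.8% of the 2873 genes listed in at least 18 cells of each group did. Both limits, 10 bp and 18 cells, were chosen after the values had been seen. With the minimum of 15 cells tried first, 806 of 3226 genes differed by at least 10 bp, and with 10 cells 1125 of 4018 did. A limit of 15 bp with 15 cells gave 15.9%, and Bst2 and Lgals3bp were the 2 of the 7 under each of these settings. A share of 2 in 7 is near the background at 10 bp and above it at 15 bp, and nothing is read from it.

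Lgals9, Xaf1 and Ifi35 had the same leading window in both groups, with a larger share in pretreated cells. For Lgals9 the window at 46 bp (chr11:78798306-78798455) went from 37.3% in 14 cells to 76.2% in 61 cells. Peaks centred from 35 bp upstream to 30 bp downstream held 19.9% in 11 naïve cells, and no pretreated cell had its peak centred there. A peak centred at 46 bp still covers part of that band. For Xaf1 the window at 23 bp (chr11:72115080-72115229) went from 45.1% in 25 cells to 82.3% in 68 cells. For Ifi35 the window at 31 bp (chr11:101309683-101309832) went from 51.6% in 16 cells to 64.4% in 44 cells. A second Ifi35 band from 61 to 80 bp went from 12.5% (9 cells) to 25.1% (28 cells). Ifi27 starts were spread, with the leaders 1 bp apart at 85 bp in naïve cells (42.7%, chr12:104672410-104672559) and 84 bp in pretreated cells (21.2%). Taken as runs of windows at most 50 bp apart, the leading run was the same in both groups for all 7 genes. Such a run held 94.6% to 100% of a gene's tags in a group, so the joining nearly fixed this outcome. No share over all genes was computed, and nothing is read from the count.

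**Figure D5:**
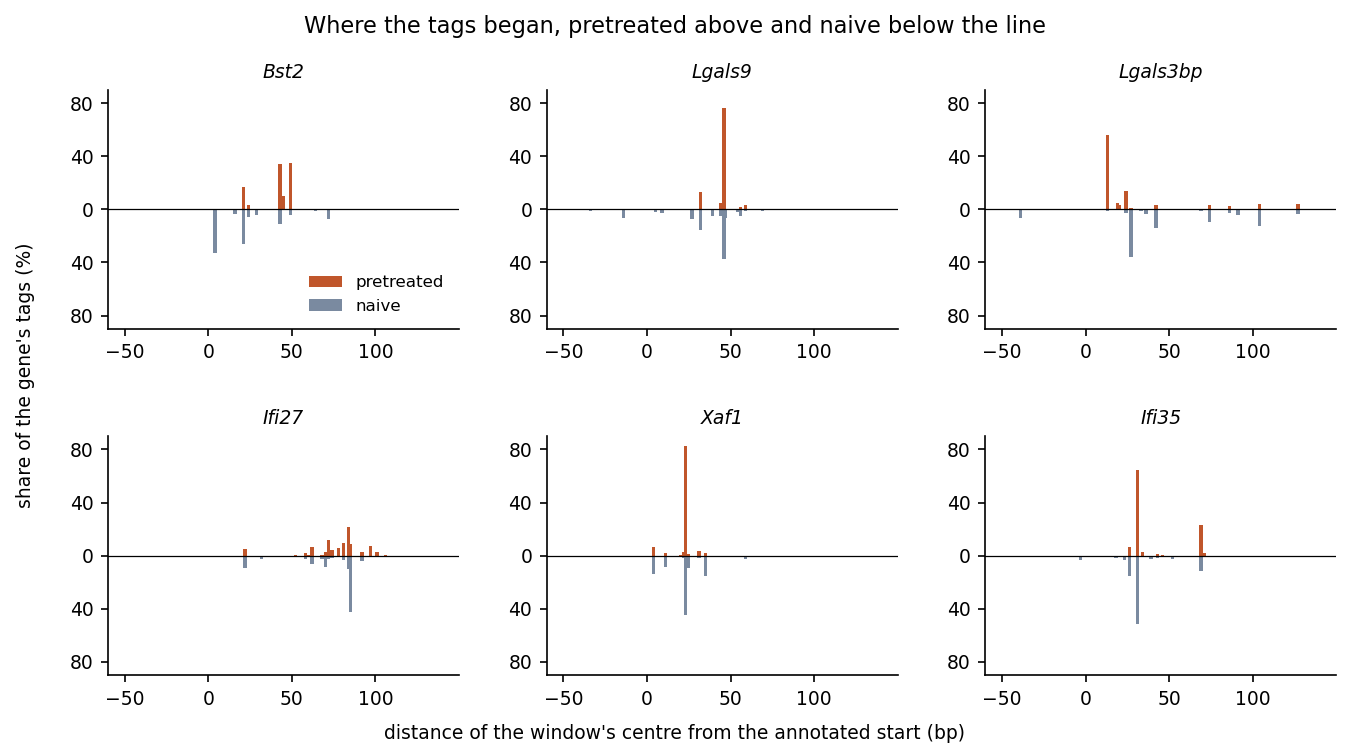
Share of a gene's tags in each window (vertical, %) by distance of the window's centre from the annotated start (horizontal, bp), pretreated cells above and naïve cells below the line, from 60 bp upstream to 150 bp downstream. Bst2 and Lgals3bp have different leaders in the groups, and Lgals9, Xaf1 and Ifi35 share theirs.

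Ly6e began mainly inside the gene. The window at 543 bp (chr15:74786005-74786154, plus strand), annotated as 5′ UTR in exon 2, held 68.3% of naïve tags in 54 cells and 93.2% of pretreated tags in 78 cells. Peaks centred within 100 bp of the annotated start held 2.40% of naïve tags in 4 cells and 2.37% of pretreated tags in 24 cells, and every one of those cells also listed the internal band. Ifi27l2a had 2 bands in pretreated cells. Windows from 60 bp upstream to 100 bp downstream held 43.8% of its tags in 31 cells, and windows from 680 to 820 bp, led by chr12:104681113-104681262 in exon 3, held 56.2% in 30 cells, with both in 17 cells. A tag there marks an RNA 5′ end, and whether it is a start of transcription or the end of a shortened RNA was not tested.

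Peaks of these genes were less concentrated in pretreated cells. The deposited focus ratio, the fraction of tags that fall at the main position of a peak, had a median over leading peaks that went from 0.93 to 0.63 for Bst2, from 0.98 to 0.53 for Lgals3bp, from 0.85 to 0.70 for Lgals9 and from 0.94 to 0.73 for Ly6e. Xaf1 went from 0.99 to 0.79, Ifi35 from 0.93 to 0.79 and Ifi27 from 0.92 to 0.87. The median was lower in pretreated cells for 7 of 7 genes, as it was for 89.4% of the 2873 genes, whose medians were 0.955 in naïve and 0.877 in pretreated cells. Among peaks of at least 200 CPM it was 0.95 in naïve and 0.84 in pretreated cells.

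Beyond 1000 bp the genes had further sense tags, which the rule leaves out. They were 57.9% of the sense tags of Lgals3bp in naïve and 48.6% in pretreated cells, 21.2% and 16.3% for Ly6e, 17.7% and 12.9% for Lgals9, 24.8% and 0.838% for Bst2, between 1.62% and 8.62% for Ifi27, Xaf1 and Ifi35, and 16.2% of the pretreated tags of Ifi27l2a, which had no naïve sense tag. Of the pretreated tags beyond this distance the last exon held 96.4% for Ifi27l2a (exon 4, 16 cells), 73.9% for Lgals3bp (exon 6, 84 cells), 78.2% for Ly6e (exon 4, 85 cells), 44.99% for Lgals9 (exon 10, 81 cells) and 16.6% for Bst2 (exon 5, 4 cells). For Xaf1 and Ifi35 no last exon was available to count in. For Ifi27 exon 4 was taken as the last and held no such tag, although a distant window of Ifi27 is annotated as exon 2 of 7. The lack of last-exon tags in these 3 genes is therefore not a measured absence. These distant tags had a log2 ratio of 3.79 for Lgals3bp, 3.01 for Ly6e, 2.79 for Lgals9 and 1.90 for Xaf1. The ratio was near 0 for the others with naïve tags, at 0.13 for Bst2 (8.79 to 9.65 CPM), -0.09 for Ifi35 and -0.13 for Ifi27, where Bst2 and Ifi35 had 5.42 and 2.12 within 1000 bp. At the edge of the rule, the farthest window inside lay at 968 bp for Ly6e, with 1081 tags, and the nearest outside at 1029 bp for Bst2, with 65 tags.

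Among related genes, Lgals3, the galectin that Lgals3bp binds, went from 252 to 1409 CPM (log2 2.48), and Lgals8, another galectin, from 46.4 to 196 (2.08). Lgals1, the most abundant galectin here, was at 13509 and 10049 (-0.43), and Lgals2 at 9.13 and 3.30. Lgals4, Lgals7 and Lgals12 were listed at 0. Of 9 other Ly6 genes none reached 50 CPM, with Ly6a at 4.94 and 0, Ly6c1 at 0.12 and 2.33 and Ly6f at 1.14 and 0, and 6 were listed at 0. Of the Ifi27 family, Ifi27l2b was at 0.89 and 1.30 CPM, 1 cell in each group, and Ifi27l1 was listed at 0.

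Possible partners of the 8 genes were listed with earlier results of these data known. Of these, Nmi, the partner of Ifi35, went from 6.07 to 42.8 CPM and from 10 to 70 cells. Mvb12a, a subunit of the ESCRT-I sorting complex, was on the same list and went from 36.9 to 172 (log2 2.22). No functional link between Mvb12a and any of the 8 genes was tested. The apoptosis inhibitors were low in both groups: Xiap was at 4.36 and 2.69, Birc2 at 7.83 and 12.5 and Birc3 at 4.77 and 11.5. Fam125a, an older symbol of Mvb12a, was listed at 0.

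The wider interferon list of 71 genes had 36 with at least 50 CPM in a group, of which 28 were at least 2-fold higher, 2 at least 2-fold lower and 6 between, with a median log2 ratio of 2.47. The highest were Rsad2, which blocks viral RNA synthesis (1.30 to 275 CPM, log2 7.72), Gbp3, a guanylate-binding protein (6.70), and H2-K1, a class I antigen-presenting molecule (5.89). The lowest were Ifitm2, an antiviral membrane protein (1363 to 64.4, log2 -4.40), Ccl5, a chemokine (-2.64), and Eif2ak2, the kinase PKR (-0.19). Of the genes described here, Bst2, Lgals3bp, Ly6e and Lgals9 had ratios above this median and Xaf1, Ifi35 and Ifi27 below it. Bst2 and Lgals9 were picked for their large rise, so nothing is read from this order. The limit of 50 CPM lets in genes that reach it in pretreated cells alone, such as Rsad2. It leaves out genes low in both groups, with falls such as that of Ifitm1 (log2 -3.97) and rises such as that of Irf7 (5.66).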

How the data were processed

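Each single cell has 1 deposited peak file. Per the file headers, the authors called peaks with HOMER findPeaks in start-site mode, per strand, 150 bp wide, at least 300 bp apart and with at least 200 tags per 10000000; the submitters' processing notes name Bowtie2, HOMER and mm9. The deposited normalized tag count is a signal scaled to 10000000 tags, and the deposited focus ratio is a fraction of a peak's tags. Signal times total tags divided by 10000000 gave whole tags for 100% of 1082504 peaks (within 0.1 tag or the rounding of the file). Peaks were joined to the deposited RefSeq windows (distance to the start in base pairs) within 2 bp, and gene strands came from GENCODE vM21, with no strand for 0.546% of windows.

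Cells with under 10% of the median total (230562.75 tags) were left out: 4 naïve and 11 pretreated. Tags were summed per group and divided by total tags, so levels are CPM (tags per 1000000 total tags). Log2 ratios are pretreated over naïve with 0.5 tag added. With 1 sample a group no test was made; intervals (95%) are exact Poisson, conditional binomial or Clopper-Pearson and cover counting error only. The level functions were tested on simulated data. The alternatives cover cell filters, distance, annotation, denominator, weighting, strand, thinning, scaling and pseudocount.

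The members and all lists were chosen with earlier results of these data known. Named are the 8 members, the 3 highest and 3 lowest genes of the interferon list with at least 50 CPM and tags in both groups, every galectin, Ly6 and Ifi27 gene with a tag, every gene listed as a possible partner, and the 5 genes most like the members over cells. Transcripts alike to the first 150 bases of the members' own were sought with BLASTN 2.17.0 (at least 95% identity over 50 bases). The 384 unnamed columns of 2 deposited matrices were not used. No cell repeated another's totals. Python 3.11.15, pandas 2.3.3, numpy 2.4.6, scipy 1.17.1 and matplotlib 3.10.9 were used.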

Additional observations from a re-analysis of the deposited data

Results flagged for a closer look

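Tags on the strand opposite to a gene enter none of the comparisons above, and 3 of the 8 genes had at least 1000 such tags in pretreated cells at a higher level than in naïve cells. Antisense tags of Lgals3bp were at 18.3 CPM in pretreated cells (27 cells) and 0.585 in naïve cells (2 cells). Those of Ly6e were at 13.7 in pretreated cells (27 cells) and 1.01 in naïve cells (3 cells). Those of Ifi27l2a were at 5.37 in pretreated cells (11 cells) and 2.56 in naïve cells (6 cells), where the gene itself was listed at 0. This rule keeps rises only. Antisense levels were lower in pretreated than in naïve cells for Bst2 (3.10 against 6.35 CPM), Xaf1 (3.07 against 3.20) and Ifi35 (0 against 0.29). The share of all genes that meet the rule was not computed, so nothing is read from the count.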

How the results depend on the processing

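The sign of the log2 ratio was kept by the summed level, the median and 6 of the 7 genes with tags in both groups under all 14 alternatives run for each, and the sign of Ifi27 was not (-0.23 to 0.10). A value is called moved when it leaves the counting interval, which is narrow here. The summed log2 ratio, 3.10, was 2.89 with windows within 100 bp, 3.08 with windows at any distance, 2.90 with GENCODE, 3.19 and 2.93 with tags in peaks and tags given to genes as denominators, 3.14 as the mean over cells, 3.14 without the highest cell of each gene, 3.09 with both strands, 3.13 after thinning, 2.86 with size factors and 3.11 without pretreated cell 93. The median log2 ratio, 3.33, was 3.25 at any distance, 3.42 and 3.16 with those denominators, 3.46 as the mean over cells, 3.36 without the highest cells, 3.41 with both strands, 3.41 after thinning and 3.09 with size factors. The cause was not tested. The count of genes at least 2-fold higher was 6 or 7; it was 6 within 100 bp, as the mean over cells, without the highest cells and after thinning (Ifi27l2a, at 51.2 CPM, lies near the limit of 50). Naïve and pretreated cells shared the leading window in 4 of 7 genes, and in 7 when windows within 50 bp were joined, since joining merges neighbours. The share of all genes with a common leading window was not computed, so nothing is read from these counts. The median rho over pairs in pretreated cells stayed between 0.12 and 0.16 under 4 alternatives added after seeing the data, as was leaving out cell 93. The share of all genes whose leading start differed by 10 bp or more, 23.8% with at least 18 cells of each group, was 1125 of 4018 genes with 10 cells, 806 of 3226 with 15 cells and 15.9% at 15 bp; these settings were all tried after seeing the data, and 18 cells replaced 15 then. Thinning to 1122993 tags used 76 naïve and 83 pretreated cells; the listing limit scales with depth, so it is no test of depth. No paired analysis was possible because each group is 1 sample and cell numbers pair no cells.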
